A study of Mus musculus with 6 samples.

Results

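The genes described here are those of the cytosolic ribosomal proteins, the protein components of the ribosome, in scraped small intestinal epithelium of control and corepressor-knockout mice. They were picked by name, but the set was chosen with earlier results of these data known. A gene was a member if the GENCODE annotation of mm10 calls it protein coding and its symbol is Rpl or Rps followed by a number, or is Rplp0, Rplp1, Rplp2 or Rpsa. That gave 83 of the 55450 genes in the count table, 51 of the large (60S) subunit and 32 of the small (40S) subunit. Of these, 80 had enough counts to be tested. The other 3, Rpl3l, Rpl10l and Rpl39l, are paralogs with little or no expression here: none had more than 2 counts in any library.

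The data were gene counts from polyA RNA sequencing of 6 mice, 1 library a mouse, and a library is called by its genotype and the number of its animal. The 3 control mice (482, 483 and 486) carried floxed alleles of both targeted corepressor genes, Ncor1 among them, and no Cre. The 3 knockout mice (423, 476 and 477) were floxed in the same way and also carried Vil1-Cre-ERT2, in which the villin promoter drives a Cre recombinase that tamoxifen activates in intestinal epithelial cells. Mice of both genotypes were 8 to 9 weeks old when tamoxifen was injected at 15 mg per 100 g body weight on 5 days. Because Cre was present in the knockout mice alone, the transgene and the deletion cannot be told apart. Whether a library was made from duodenum, jejunum or ileum is not in the labels. P-values measure the spread between mice of a genotype. Total counts ran from 23476031 to 46835165 a library. Ncor1, the deleted corepressor, had 140, 137 and 99.3 CPM (counts per 1000000 counts) in the controls and 31.3, 36.4 and 22.5 in the knockouts. CPM values are scaled between libraries by the trimmed mean of M-values (TMM), whose factors ran from 1.09 to 1.28 in controls and from 0.741 to 0.975 in knockouts. Control 486 stood apart from the other controls at the ribosomal protein genes, so the main counts below are also given without it.

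A ribosome is assembled in the nucleolus from ribosomal RNA and the ribosomal proteins, which are needed in matched amounts. Their mRNAs are among the most abundant of a growing cell. Most begin with a C followed by an unbroken run of pyrimidines, the 5′ terminal oligopyrimidine (TOP) motif, through which the mTOR pathway and LARP1 control their translation and stability. The intestinal epithelium renews itself every few days, and its dividing crypt cells depend on making ribosomes.

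RefSeq promoters on GRCm38.p6, the assembly of mm10, were matched by symbol for 63 of the 83 genes, with 75 annotated starts. The run was searched on the gene's strand as a C within 5 bases of the annotated start, followed by at least 4 bases that were C or T. Bases before that C were not checked, so a match could be the later part of a longer pyrimidine run. It was present at 31 of the 75 starts (41.3%), against 18.4% of all 32851 RefSeq promoters. Windows of 30 bases around the start, 15 before it and 15 from it on, are shown for members at both ends of the range of fold changes and for Rps6, Rplp2 and Rps27l. Capitals mark the run from the matched C as far as the window reaches, and a window without capitals held no such run. The run of Rpl13a, of 14 bases, goes on past its window. Rps27l has a further annotated start, at chr9:66946398-66946427, where no run was found and whose window is not shown.
Rps6, chr4:86857353-86857382, minus strand: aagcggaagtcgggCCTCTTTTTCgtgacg
Rplp2, chr7:141447636-141447665, plus strand: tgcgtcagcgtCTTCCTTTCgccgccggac
Rps27l, chr9:66946071-66946100, plus strand: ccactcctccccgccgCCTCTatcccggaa
Rps23, chr13:90923107-90923136, plus strand: gccttcggctgggcggggCTTCCCgcaatg
Rps25, chr9:44407699-44407728, plus strand: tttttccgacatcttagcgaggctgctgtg
Rpl10, chrX:74270801-74270830, plus strand: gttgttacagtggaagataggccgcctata
Rpl13a, chr7:45128731-45128760, minus strand: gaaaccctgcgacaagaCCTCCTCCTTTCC
Rps10, chr17:27635230-27635259, minus strand: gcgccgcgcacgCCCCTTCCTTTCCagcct
Rps25, Rpl10 and Rps23 are among the 5 members with the highest fold changes, and Rpl13a and Rps10 are the 2 with the lowest. A run was therefore found at both ends of the range. Among genes with a matched promoter, 29 tested members had a run at a start, and their median log2 fold change of knockout over control was 1.15. For the 31 tested members without one it was 1.17, and in each set 21 members rose by the test described below, by which 17.3% of all tested genes rose.

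Other short motifs were counted on both strands of the 300 bases from 250 before to 50 after each start. The ETS-family motif CCGGAAG was present in 36% of the 75 member promoters and in 8.86% of all promoters. The SP1 motif GGGCGG was present in 60% against 35.7%, and it can overlap other GC-rich motifs. The YY1 motif AAGATGG was present in 16% against 6.34%, the E-box CACGTG in 10.7% against 7.15%, and the TATA box TATAAA in 9.33% against 13.6%. These are matches of letters and not measured binding.

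The counted level of the members spread widely, although their proteins are made in matched amounts. Per length of the main annotated mRNA, in TPM (transcripts per 1000000) averaged over the 6 libraries, the 80 tested members ran from 1.53 for Rpl23a to 2883 for Rpl41, with a median of 148. Among the highest were Rpl41, which encodes a very short basic peptide of the large subunit, Rplp1, Rps14 and Rpl32. In all, 8 members were over 1000 TPM and 7 were under 10.

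Ribosomal protein genes have many processed pseudogenes, and reads that match several genes may be discarded or split in counting; the handling of such reads is not given in the sources used here. To describe this, each main mRNA was divided into overlapping windows of 50 bases, and a window was called unique if no transcript of another annotated gene held it on either strand. The 22 members with up to 25% of unique windows had a median level of 36.0 TPM. The 48 members with over 25% to 75% had a median of 190 TPM, and the 13 with over 75%, the 3 untested paralogs included, 549 TPM. Rps3 was unique over 97.0% of its windows and averaged 744 TPM, and Rps27 was unique over 1.35% and averaged 17.6 TPM. Across the 80 tested members Spearman's rho between level and percent unique was 0.46, and between log2 fold change and percent unique it was -0.09. These are descriptions across genes, which are not independent replicates. Levels of the low members are therefore uncertain, and levels of different members should be read with this spread in mind. TPM also depends on which annotated mRNA was taken as the main one.

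**Figure D1:**
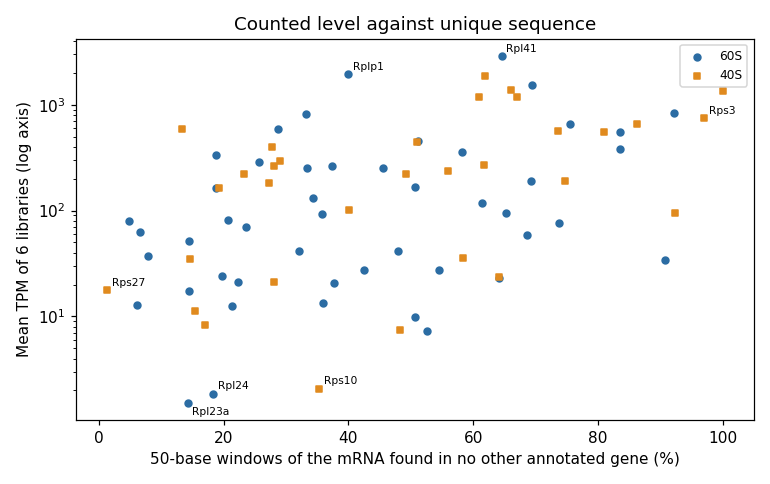
Each point is 1 of the 80 tested ribosomal protein genes. The horizontal axis gives the percent of 50-base windows of its main mRNA found in no other annotated gene, and the vertical log axis its mean TPM over 6 libraries. Levels tend to be lower at low percentages (Spearman's rho 0.46), but some low levels lie at middle percentages, such as Rps10 at 35.3% and Rpl28 at 52.6%. Levels run from Rpl23a at 1.53 TPM to Rpl41 at 2883 TPM.

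As a share of all counts, with no scaling between libraries, the 83 genes took 0.798%, 0.742% and 1.56% in controls 482, 483 and 486, and 2.45%, 1.30% and 1.47% in knockouts 423, 476 and 477. The genotypes overlapped, because control 486 lay above knockouts 476 and 477. The means were 1.03% ± 0.459 (SD, n = 3) in controls and 1.74% ± 0.621 (SD, n = 3) in knockouts, a difference of 0.701 percentage points (two-sided exact permutation test, p = 0.3, where the smallest p that 3 against 3 allows is 0.1). Depth was not the limit, since the widest 95% Wilson interval of a single library ran from 2.44% to 2.45%, and such intervals cover counting error only.

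The share depended on what it was taken of. Without the counts of the 20 most abundant genes of the table, the means were 1.18% and 2.29% (exact permutation test, p = 0.2). The TMM effective library is the count in the tested genes times the TMM factor. Against it, the shares were 0.623%, 0.656% and 1.43% in controls and 2.51%, 1.49% and 1.98% in knockouts. There every knockout lay above every control, at the smallest p the design allows (exact permutation test, p = 0.1). In bulk tissue, a change in which cells were sampled and a change in RNA per cell cannot be told apart.

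**Figure D2:**
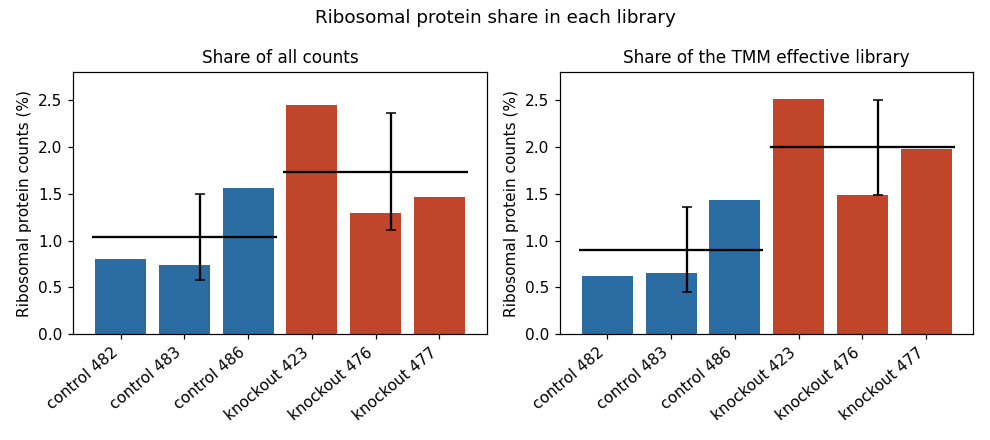
Bars give the counts of the 83 ribosomal protein genes in each library as a percent of all counts (left) and of the TMM effective library (right), with controls in blue and knockouts in red. Horizontal lines are genotype means and vertical bars SD (n = 3); on the left control 486 (1.56%) lies above knockouts 476 (1.30%) and 477 (1.47%), and on the right the genotypes do not overlap.

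With TMM scaling, the ribosomal protein genes were higher in the knockouts as a group, by a median of 2.25-fold. The size of this difference depended on scaling and on length correction, as given below. By edgeR's quasi-likelihood test over all 15028 tested genes and Benjamini-Hochberg adjustment (called under 0.05), 55 of the 80 tested members rose, 0 fell and 25 did not pass. Among all tested genes, 17.3% rose and 18.3% fell. Of the large subunit 32 of 48 rose, and of the small subunit 23 of 32. The median log2 fold change of the members was 1.17, against -0.06 for all tested genes, and 79 of the 80 estimates were above 0. The calls were close to the threshold: 32 of the 55 had an adjusted p between 0.02 and 0.05, and 6 had one under 0.01. In 44 members every knockout lay above every control, a pattern that 23.9% of all tested genes showed, and in 0 did every knockout lie below (26.4% of all tested genes).

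The members moved together from library to library. The median deviation of a member from its own 6-library mean, on the log2(CPM + 0.5) scale, was -0.89, -0.91 and 0.10 in controls 482, 483 and 486, and 1.00, 0.16 and 0.61 in knockouts 423, 476 and 477. The control 486 median was thus about 1 unit above those of the other controls and close to that of knockout 476. Control 486 lay above both other controls in 77 of the 80 members (38.5% of all tested genes), and above knockout 476 in 33. Knockout 423 was the highest of the 6 libraries in 72 members (19.2% of all tested genes).

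The number of calls rested on single libraries. Without control 486, 72 members rose (19.3% of all tested genes did), and the median log2 fold change was 1.56. Without knockout 476, 60 members rose (15% of all tested genes), at a median of 1.37. Without control 482 the number was 19 (9.98% of all tested genes), without control 483 it was 16 (9.91%), without knockout 423 it was 19 (12.2%), and without knockout 477 it was 26 (10.3%). None fell in any of these fits, and 16 of the 55 calls remained in all 6 of the fits that left out 1 library. The median log2 fold change stayed between 0.94 and 1.56 across those fits.

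**Figure D3:**
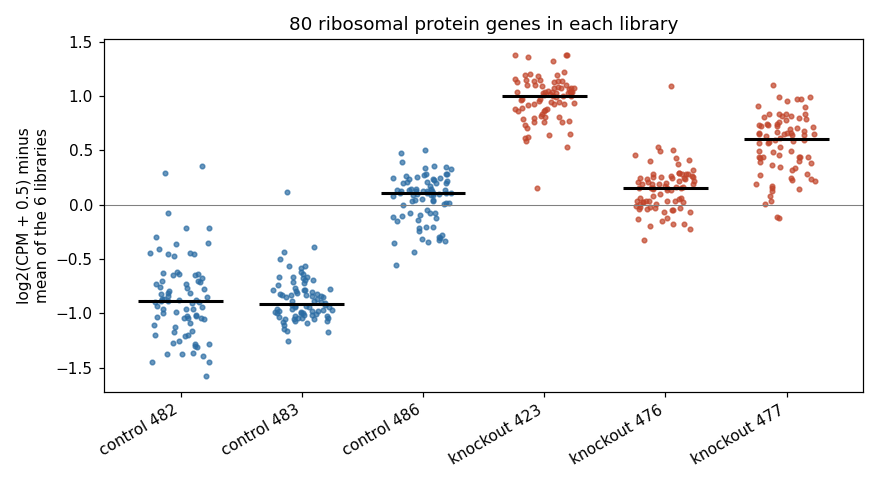
Each point is 1 of the 80 tested genes in 1 library, as its log2(CPM + 0.5) minus its own mean over the 6 libraries, with controls in blue and knockouts in red and black lines at the medians. Medians were -0.89 and -0.91 in controls 482 and 483, 0.10 in control 486, and 1.00, 0.16 and 0.61 in the knockouts.

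Gene length ran with these differences across the whole table, and ribosomal protein mRNAs are short. The median main mRNA was 756 bases in the tested members and 2424.5 bases in all tested genes. The main mRNA is the annotated one with the longest coding sequence, and whether it is the form present here was not tested. For some members it is long, such as 3706 bases for Rps20, 2045 for Rpl5 and 1908 for Rps3. Across 15018 tested genes with a length, Spearman's rho between log2 fold change and mRNA length was -0.41, and across the 80 members it was -0.22, both as descriptions across genes. Within libraries, the rho between a gene's deviation and its mRNA length was 0.47, 0.40 and 0.03 in controls 482, 483 and 486, and -0.36, -0.20 and -0.41 in the knockouts, so control 486 stood between the other controls and the knockouts in this measure too.

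Short genes that encode no cytosolic ribosomal protein were also higher in the knockouts. Of 2562 other tested genes with an mRNA of up to 1000 bases, 37.4% rose, and their median log2 fold change was 0.79. The 60 members of that length had a median of 1.18, and 44 of them rose. At over 1000 to 2000 bases the median was 0.18 for 3482 other genes, 21.5% of which rose, and 1.03 for 17 members, 10 of which rose. The length class of a gene depends on which annotated mRNA was taken as its main one, as does the mRNA length correction. When each library's smooth trend with mRNA length and GC content was removed, a setting chosen after seeing the data, 14 members rose (13.5% of all tested genes did) and the median was 0.50. The same without control 486 left 30 (13.1%), with a median of 0.68. With libraries scaled by their total counts alone, 11 rose (7.54%), at a median of 0.77 against -0.49 for all tested genes. With exon length and GC content, or exon length alone, 34 rose in each case (14% and 13.8%), and in a test against a 1.5-fold change 14 rose (8.12%). The part of length in the difference was not tested further.

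**Figure D4:**
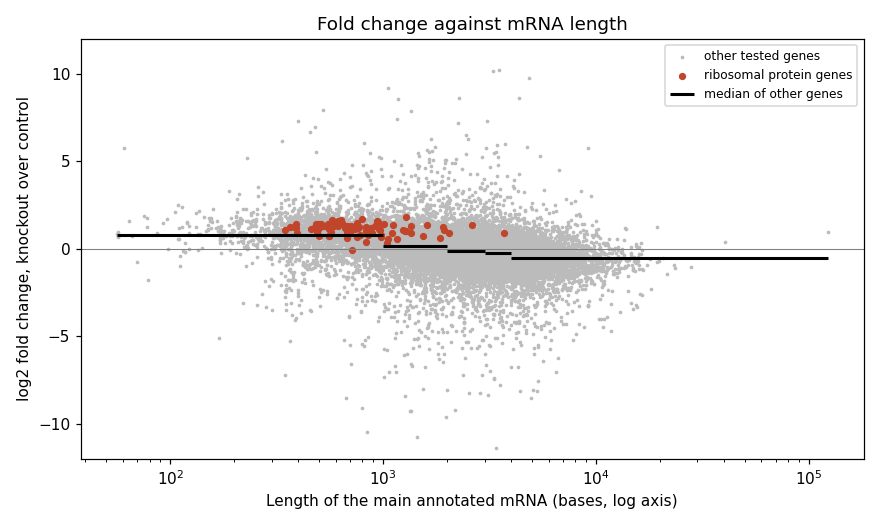
Each point is a tested gene, with the length of its main mRNA on the horizontal log axis and its log2 fold change of knockout over control on the vertical axis; ribosomal protein genes are red and other genes grey. Black lines are medians of the other genes in 5 length classes, from 0.79 at up to 1000 bases to -0.50 at over 4000 bases.

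Members with assigned roles are given first by the part of the ribosome they form. The stalk of the large subunit, Rplp0 with dimers of Rplp1 and Rplp2, recruits the translation factors that hydrolyse GTP. Rplp0 had 145, 131 and 313 CPM in controls 482, 483 and 486 and 498, 628 and 347 CPM in knockouts 423, 476 and 477. Its genotypes did not overlap, and unlike most members it was highest in knockout 476 (log2 fold change 1.32, SE 0.37, adjusted p = 0.0216 by edgeR's quasi-likelihood test). Rplp1 had 289, 301 and 652 CPM in controls and 1228, 705 and 939 CPM in knockouts. Rplp2 had 60.4, 59.4 and 128 CPM in controls and 211, 127 and 193 CPM in knockouts. Both of these partners rose (log2 fold changes 1.21 and 1.10). Rplp1 did not overlap between genotypes, whereas for Rplp2 control 486 lay just above knockout 476.

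Rpl5 and Rpl11 form a particle with the 5S ribosomal RNA that can bind Mdm2, the ubiquitin ligase of p53, when ribosome assembly is disturbed. Rpl11 had 5.59, 5.20 and 10.8 CPM in controls and 21.5, 12.2 and 18.7 CPM in knockouts, with no overlap. It rose (log2 fold change 1.27, SE 0.34, adjusted p = 0.0175 by edgeR's quasi-likelihood test). Rpl5 had 11.7, 8.92 and 16.6 CPM in controls and 33.7, 17.0 and 18.003 CPM in knockouts. The genotypes did not overlap, but the estimate of 0.88 (SE 0.32) did not pass (adjusted p = 0.0576 by the same edgeR test). Of the 50-base windows of Rpl5, 6.16% were unique.

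Among small subunit proteins, Rps6 is the substrate of the S6 kinases downstream of mTOR. It had 3.82, 3.11 and 5.88 CPM in controls and 13.0, 6.88 and 8.97 CPM in knockouts, did not overlap and rose (log2 fold change 1.17, SE 0.33). Rpsa, once described as a laminin receptor, had 147, 149 and 313 CPM in controls and 601, 312 and 395 CPM in knockouts. It rose by 1.10 on the log2 scale, and control 486 lay just above knockout 476. Rps27a, which is made as a fusion with ubiquitin, had 4.24, 3.01 and 6.74 CPM in controls and 21.0, 8.01 and 15.2 CPM in knockouts. It rose without overlap (log2 fold change 1.65, SE 0.40) and was among the 5 highest.

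The largest estimate was that of Rps25 (ENSMUSG00000009927, chr9:44407139-44410427 on mm10), a small subunit protein used by several internal ribosome entry sites. Its level was 44.9, 59.5 and 123 CPM in controls and 350, 194 and 261 CPM in knockouts. Every knockout lay above control 486, the highest control (log2 fold change 1.82, SE 0.39, adjusted p = 0.0070 by edgeR's quasi-likelihood test). Rpl10, which joins the large subunit late in assembly near the peptidyl transferase centre, had 9.48, 8.61 and 12.2 CPM in controls and 37.5, 25.1 and 36.6 CPM in knockouts. It had the smallest adjusted p of the members (log2 fold change 1.71, SE 0.24, adjusted p = 0.0010 by the same edgeR test), and control 486 was less far from the other controls than at most members. Of the windows of Rpl10, 7.87% were unique. Rps23, a protein of the decoding centre, had 2.11, 2.03 and 3.36 CPM in controls and 10.5, 5.25 and 7.02 CPM in knockouts, with no overlap and a log2 fold change of 1.595 (SE 0.35).

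At the other end, 5 members had estimates of at most 0.58, and none of them passed. Rps10, the 1 member with an estimate below 0, had 1.24, 0.979 and 0.508 CPM in controls and 1.01, 0.798 and 0.748 CPM in knockouts. Its genotypes overlapped throughout (log2 fold change -0.08, SE 0.46), and its sign changed with the libraries used. Rpl13a had 11.2, 13.2 and 25.1 CPM in controls and 31.2, 13.9 and 17.5 CPM in knockouts, with control 486 above 2 of the knockouts. Its estimate was 0.34 (SE 0.37). Rpl10a, a protein of the L1 stalk, had 13.2, 7.06 and 8.28 CPM in controls and 16.2, 9.54 and 12.1 CPM in knockouts. Along with Rps10 and Rpl12, it was 1 of 3 members in which control 482 and not control 486 was the highest control. Its estimate was 0.41 (SE 0.30). Rpl27a, of the large subunit, had 12.1, 10.98 and 20.2 CPM in controls and 32.3, 14.2 and 17.1 CPM in knockouts (0.55, SE 0.35). Rpl23, which like Rpl5 and Rpl11 can bind Mdm2, had 49.3, 39.2 and 69.7 CPM in controls and 99.5, 62.3 and 74.9 CPM in knockouts (0.58, SE 0.26). In both, control 486 lay within the range of the knockouts.

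**Figure D5:**
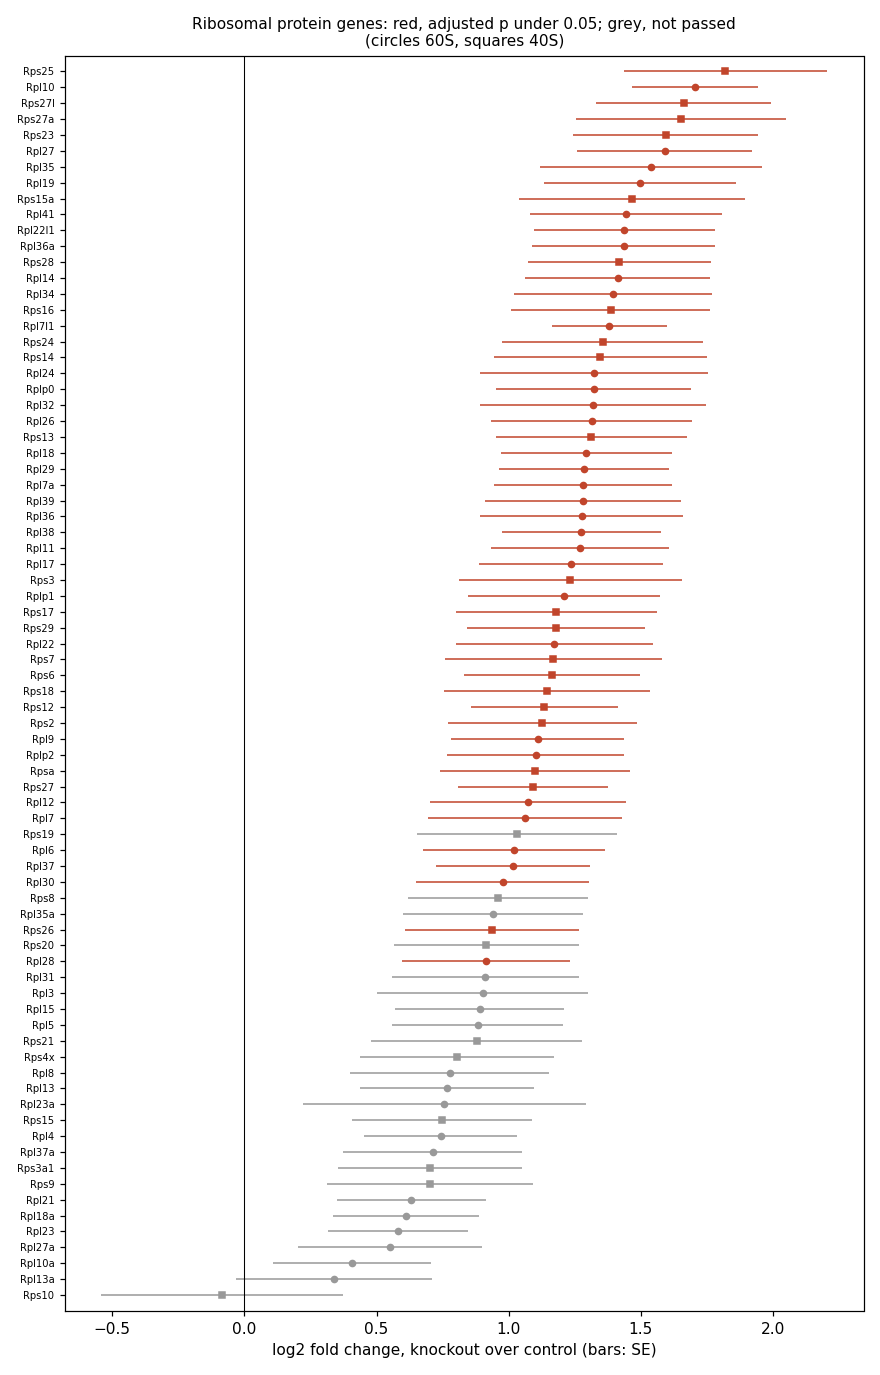
Log2 fold change of knockout over control for 78 of the 80 tested genes, sorted, with bars of 1 SE; circles are large and squares small subunit genes, red where the adjusted p was under 0.05 and grey otherwise. Estimates run from -0.08 for Rps10 to 1.82 for Rps25, and of those drawn all but Rps10 are above 0.

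The most abundant members rest on high counts. Rpl41 had 366, 428 and 923 CPM in controls and 1637, 1275 and 1764 CPM in knockouts. It did not overlap and rose (log2 fold change 1.45, SE 0.36), and it was highest in knockout 477. Rps14, of the small subunit platform, had 265, 320 and 783 CPM in controls and 1237, 908 and 1335 CPM in knockouts, and it rose by 1.35 on the log2 scale, also with its highest level in knockout 477. Rpl32 had 198, 214 and 559 CPM in controls and 1102, 561 and 759 CPM in knockouts. In Rpl32 control 486 and knockout 476 were nearly equal, and it rose (log2 fold change 1.32, SE 0.43).

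A few members are paralogs of a standard ribosomal protein. Rps27l, which is known as a p53 target, had 83.4, 124 and 193 CPM in controls and 469, 308 and 490 CPM in knockouts, with no overlap (log2 fold change 1.66, SE 0.33, adjusted p = 0.0054 by edgeR's quasi-likelihood test). Rpl7l1 had 30.1, 32.0 and 44.3 CPM in controls and 96.7, 80.3 and 101 CPM in knockouts, with no overlap and a narrow spread within each genotype (log2 fold change 1.38, SE 0.22, adjusted p = 0.0018 by the same edgeR test). Rpl22l1, whose level is known to rise when Rpl22 is lost, had 17.98, 24.6 and 42.1 CPM in controls and 98.6, 51.4 and 79.4 CPM in knockouts. It rose by 1.44 on the log2 scale. Rpl22 itself had 98.0, 96.3 and 209 CPM in controls and 420, 195 and 296 CPM in knockouts, and it rose as well (1.17), with control 486 above knockout 476.

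The ratio of a paralog to its partner needs no scaling between libraries. Of 7 pairs considered, 3 had both genes among the members and at least 10 counts of each in every library. The log2 count ratio of Rps27l to Rps27 was 5.20, 5.55 and 5.93 in controls and 6.31, 5.97 and 6.25 in knockouts, with every knockout above every control (exact permutation test, p = 0.1, adjusted over the 3 pairs 0.3). Because 1.35% of the windows of Rps27 are unique, the size of this ratio does not compare the 2 mRNAs. For Rpl22l1 over Rpl22 the mean log2 ratio was -2.24 ± 0.246 (SD, n = 3) in controls and -1.97 ± 0.104 (SD, n = 3) in knockouts (exact permutation test, p = 0.2, adjusted 0.3). For Rpl7l1 over Rpl7 it was -3.02 ± 0.417 and -2.79 ± 0.216 (exact permutation test, p = 0.5, adjusted 0.5).

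Within the ribosomal protein counts themselves, the balance of the subunits did not move detectably. Large subunit genes took 48.9%, 46.2% and 45.1% of the members' counts in controls and 45.9%, 48.4% and 45.6% in knockouts, which overlapped fully (difference of means -0.0487 percentage points; exact permutation test, p = 1). Per mRNA length the means were 51.0% and 52.3% (exact permutation test, p = 0.3).

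The shares of single genes within that total were read in the same way. A gene's share of the members' counts put every knockout above every control for 13 of the 80 tested members, and every knockout below for 15. The other 52 overlapped. The 13 and 15 are 16.2% and 18.8% of the members themselves, and no share over all tested genes was computed for this measure. Shares of a total are tied to each other, so a higher share of some genes lowers that of others. The 13 and 15 are therefore a description only. Rps25 took 0.721%, 0.907% and 0.864% of the members' counts in controls and 1.40%, 1.30% and 1.32% in knockouts. Rps9, of the small subunit, took 4.59%, 5.12% and 5.39% in controls and 3.85%, 3.65% and 3.81% in knockouts. Rps15 went from a mean of 3.35% ± 0.0766 to 2.54% ± 0.111 and Rpl8 from 3.97% ± 0.296 to 3.003% ± 0.369 (SD, n = 3 each), also without overlap. These 4 were picked from the non-overlapping members after their values were seen. Without overlap, 3 against 3 always gives the smallest p the design allows (exact permutation test, p = 0.1). That p therefore follows from how the 4 were picked and adds no support.

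Another 4 ribosomal protein genes tested have names outside the rule, and 2 of them rose and 0 fell. Rack1, a scaffold on the small subunit head, had 375, 390 and 1058 CPM in controls and 1794, 1012 and 1297 CPM in knockouts. Its genotypes overlapped, since control 486 lay above knockout 476, and it did not pass (log2 fold change 1.17, SE 0.42, adjusted p = 0.0550 by edgeR's quasi-likelihood test). Rpl36al and Fau, made as a fusion of a ubiquitin-like protein with Rps30, rose (log2 fold changes 1.87 and 0.87).

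The factors that build the ribosome were read from lists of the pathway, beside the 17.3% of all tested genes that rose and the 18.3% that fell. Of 20 genes for RNA polymerase I and ribosomal RNA transcription, 6 rose and 1 fell (median log2 fold change 0.48). The polymerase subunits Twistnb, Polr2e and Polr1e rose by 1.17, 1.17 and 1.90 on the log2 scale, the initiation factor Rrn3 rose by 0.87, and the upstream binding factor Ubtf fell by 0.67. Of 12 genes for the small nucleolar ribonucleoproteins that modify ribosomal RNA, 3 rose and 0 fell (median 0.59), namely Nufip1 (1.17) and the H/ACA proteins Nhp2 (1.66) and Nop10 (1.43).

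Of 36 small subunit assembly factors 8 rose and 0 fell (median 0.50), and of 47 large subunit assembly factors 14 rose and 1 fell (median 0.57). Pno1, which guides the last steps of small subunit maturation, had 9.59, 8.41 and 15.5 CPM in controls and 48.6, 27.2 and 38.4 CPM in knockouts, with no overlap (log2 fold change 1.77). Dcaf13, Utp4 and Imp4 of the early small subunit particle rose by 0.92, 1.38 and 1.00. In the large subunit list, Senp3, Gtpbp4, Nip7 and Brix1 rose by 1.18, 1.40, 1.53 and 1.41. The large subunit gene that fell was Nop53 (-0.59). Of 10 chaperones and importers of ribosomal proteins, 1 rose (Bccip, 0.88) and 0 fell (median 0.23).

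Other mRNAs known to carry a TOP motif include translation elongation and initiation factors. Of 18 tested, 7 rose and 0 fell (median 0.69), with Btf3, Tpt1, Eif3e and Eif3h at log2 fold changes of 1.19, 1.15, 1.32 and 1.29. Their summed level was 4462, 4377 and 8221 CPM in controls and 10298, 8747 and 9339 CPM in knockouts, and control 486 again stood apart from the other controls. Mitochondrial ribosomal proteins form a separate ribosome and are encoded by other genes. Of 77 tested, 50 rose and 0 fell (median 1.01). Those with the smallest adjusted p were Mrps18b, Mrpl35, Mrps28 and Mrpl45, with log2 fold changes of 2.45, 1.78, 1.93 and 1.31.

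Of 23 regulators of ribosomal protein mRNA and of mTOR signalling, 3 rose and 2 fell (median -0.19). Eif4ebp1, a translational repressor that mTOR inactivates by phosphorylation, had 10.6, 9.46 and 12.3 CPM in controls and 52.8, 106 and 98.4 CPM in knockouts, with no overlap (log2 fold change 2.99, SE 0.29, adjusted p = 0.00014 by edgeR's quasi-likelihood test). Mxd4, an antagonist of Myc at Max, fell by 1.42 and Larp1b, a paralog of Larp1, fell by 0.98 on the log2 scale. Rheb, the GTPase that activates mTOR, rose by 0.86. Myc itself had 4.64, 2.47 and 1.97 CPM in controls and 6.15, 2.43 and 1.90 CPM in knockouts, which overlapped (log2 fold change 0.21, SE 0.50). Of 19 genes for ribosome quality control and recycling, 1 rose and 3 fell (median -0.15): the recycling factor Abce1 rose by 1.22, and Gigyf2, Nemf and Ankzf1 fell by 1.19, 0.92 and 0.76.

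Markers of cell types were read beside these results. Of 9 general epithelial markers, 0 rose and 1 fell, and their sum ran from 15144 to 19435 CPM in controls and from 16585 to 20514 CPM in knockouts, so the labelled tissue was present in every library. The sum of 10 proliferation markers ran from 76.7 to 121 CPM in controls and from 144 to 259 CPM in knockouts, without overlap. Of the 10, Pcna rose and 0 fell, and the separation of the sums rested on Pcna: without it, left out after its value was seen, the other 9 summed to 91.6, 47.7 and 54.6 CPM in controls and 154.8, 36.7 and 26.4 CPM in knockouts, which overlapped. Of 8 tested crypt stem and progenitor markers 0 rose and 2 fell (73.3 to 173 CPM in controls, 51.2 to 241 in knockouts). Of 9 villus enterocyte markers 5 rose and 1 fell, and Alpi, Apoa1 and Sis did not pass. Their sum was 51925 to 76302 CPM in controls and 108105 to 200687 CPM in knockouts. Fabp2 was the largest part of it in each knockout, at 39708, 52980 and 86103 CPM, against 8011, 13511 and 17272 CPM in controls. The marker that fell, Anpep, had 7276, 9968 and 5596 CPM in controls and 1039, 1204 and 1103 CPM in knockouts. All 5 erythrocyte markers rose, with sums of 7.95 to 22.2 CPM in controls and 35.5 to 543 CPM in knockouts. Of 6 pancreatic markers, Cela1 was the 1 tested, and it rose. The pancreatic sums (7.19 to 14.4 CPM in controls and 32.2 to 47.6 CPM in knockouts) rested almost wholly on Cela1. Alone it had 7.10, 10.6 and 13.7 CPM in controls and 31.8, 38.2 and 44.2 CPM in knockouts. The other pancreatic markers had too few counts to be tested, and Amy2a5 had no count in either genotype. The sums for T and other leukocytes (115 to 634 CPM and 498 to 584 CPM), B and plasma cells (53.8 to 311 and 4.77 to 106), myeloid cells (20.7 to 57.2 and 21.7 to 26.9), mesenchyme (12.1 to 43.7 and 10.4 to 52.5) and endothelium (4.66 to 7.33 and 1.21 to 6.48) overlapped between genotypes. In these lists 1 gene of 10, 0 of 3, 3 of 8, 0 of 9 and 1 of 4 tested passed in either direction, and S100a8 of the myeloid list had no count in the controls. The part of these cells in the ribosomal protein difference was not tested.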

How the data were processed

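The members and gene lists were chosen with earlier results of these data known. Raw counts per gene, as the authors deposited them, were the main input. Reads had passed through fastp 0.21.0, STAR 2.7.9a and featureCounts (Subread 1.6.2) against mm10, per the submitters' processing notes. How strand and reads matching several genes were treated, and which annotation was used, is not given in the sources used. Variance-stabilised log2 values, also deposited, served 1 alternative.

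The analysis used edgeR 4.0.16 under R 4.3.3. Its filterByExpr left 15028 genes, TMM scaled the libraries, and the robust quasi-likelihood test with Benjamini-Hochberg adjustment compared the genotypes at a threshold of 0.05. The procedure was tested on simulated data in which genes varied independently and no trend with length was set. It therefore could not check calls of genes that move together from library to library. Of 55450 identifiers, 55190 matched GENCODE M21, the source of symbols, lengths and coordinates. TPM used the mRNA with the longest coding sequence. Sequences came from RefSeq tables. Single values were compared by two-sided exact permutation tests. Depth is given by total counts; 3 counts, the floor, correspond to 0.0586 to 0.173 CPM.

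Named were members with a set role, paralogs, the 5 highest and 5 lowest fold changes and the 5 most abundant by TPM. Up to 4 genes of each list with the smallest adjusted p were also named. Ubtf, Nop53, Myc, Rpl12, Rps9, Rps15, Rpl8 and Rps4l were added after their values were seen. Rps3, Rps27, Rpl23a and Rpl28 were named as examples of levels and unique sequence, and Rpl19 for its kept call. The other targeted gene and some genes these rules name are not reported here. Alternatives were other scalings, filters and tools (DESeq2 1.42.0, limma 3.58.1), length and GC corrections (mgcv 1.9.3), a 1.5-fold test and the omission of each library in turn.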

Additional observations from a re-analysis of the deposited data

How the results depend on the processing

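In every fit run, 0 ribosomal protein genes fell. Scaling by RLE or the upper quartile, other filters, DESeq2, limma-voom, limma-trend on the variance-stabilised values and leaving out the 20 most abundant genes kept 50 of the 55 calls in all of them. Calls kept under every alternative were those of Rpl10, Rpl19, Rpl7l1, Rps25 and Rps27l. The number that rose was 34 with the exon length trend or the exon length and GC trend removed, 11 with library-size scaling alone, 14 with the mRNA length and GC trend removed (30 without control 486 as well; both chosen after seeing the data) and 14 in a test against a 1.5-fold change, which asks for more. It ran from 16 to 72 when 1 library was left out. The median log2 fold change was 0.50 with the mRNA length and GC trend removed and 0.94 to 1.56 when 1 library was left out. Library-size scaling moved the median of all genes to -0.49, with 7.54% of all genes rising and 30.3% falling. The cause of these shifts was not tested. No paired analysis was possible because the genotypes share no animal numbers.

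The sign of Rpl10a changed with library-size scaling (-0.040) and with the mRNA length and GC trend removed (-0.15, or -0.35 without control 486). That of Rpl13a changed in the first 2 of these (-0.033 and -0.034) and without knockout 423, where the range with 1 library left out was -0.043 to 0.78. That of Rps10 changed in limma-voom (0.042), without control 482 and without knockout 477, with a range of -0.38 to 0.22.

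In the related lists, library-size scaling left as rising 1 ribosomal protein outside the rule, 1 RNA polymerase I gene (2 fell), 1 box C/D or H/ACA gene, 1 small and 4 large subunit assembly factors, 0 chaperones (2 fell), 2 TOP mRNAs, 1 regulator (6 fell), 0 quality control genes (8 fell) and 22 mitochondrial ribosomal proteins. The 1.5-fold test left 1, 3 (0 fell), 2 and 5 (0 fell) of the ribosomal proteins outside the rule, RNA polymerase I genes, small and large subunit assembly factors, 0 chaperones, 0 TOP mRNAs, 1 regulator, 0 quality control genes (0 fell) and 25 mitochondrial ribosomal proteins. With the exon length and GC trend removed, 1 protein outside the rule, 0 chaperones, 5 regulators and 2 quality control genes rose, 0 large subunit assembly factors fell and 1 mitochondrial ribosomal protein fell. With exon length alone, the values were 1 protein outside the rule, 2 quality control genes rising and 1 mitochondrial ribosomal protein falling. With mRNA length and GC, 0 proteins outside the rule, 5 regulators and 2 quality control genes rose, 0 large subunit assembly factors fell and 2 mitochondrial ribosomal proteins fell. Without control 486 as well, 1 protein outside the rule, 2 chaperones and 7 regulators rose, 3 RNA polymerase I genes fell and 0 large subunit assembly factors fell, a number also given by upper-quartile scaling and by no filter beyond 10 counts.

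Leaving out 1 library gave 1 to 3 proteins outside the rule, 4 to 8 RNA polymerase I genes (0 to 1 fell), 3 to 4 box C/D or H/ACA genes, 3 to 10 small and 5 to 16 large subunit assembly factors (0 large fell), 0 to 2 chaperones, 1 to 11 TOP mRNAs, 1 to 4 regulators (2 to 3 fell), 1 quality control gene (0 to 5 fell) and 33 to 60 mitochondrial ribosomal proteins. The difference in the share of counts ran from 0.346 to 0.966 percentage points, that in the large subunit share from -0.944 to 1.03, and the differences in log2 ratio from 0.173 to 0.411 (Rpl22l1), 0.434 to 0.802 (Rps27l) and -0.00364 to 0.361 (Rpl7l1). In 13 members at least 1 library held under 100 counts, which limits their precision.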

Other observations

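Rps4l, a paralog of Rps4x, has a ribosomal protein symbol but is annotated as a transcribed processed pseudogene and is no member. It ran against the members, with 25.8, 34.0 and 39.2 CPM in controls and 14.04, 14.1 and 18.9 CPM in knockouts, without overlap. It fell by 1.07 on the log2 scale (SE 0.23, adjusted p = 0.0071 by edgeR's quasi-likelihood test), and it was picked after its value was seen. Its control 486 was the highest library, as control 486 was the highest control in most members.

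The 300 rows annotated as pseudogenes and named for ribosomal protein genes took 0.248%, 0.236% and 0.499% of all counts in controls and 0.900%, 0.448% and 0.514% in knockouts. Per 100 counts of the members they held 31.1, 31.8 and 31.9 counts in controls and 36.8, 34.6 and 35.1 in knockouts. Every knockout lay above every control in this ratio, which needs no scaling between libraries (exact permutation test, p = 0.1, the smallest that 3 against 3 allows). In this ratio control 486 differed little from the other controls. The means were 31.6 ± 0.429 and 35.5 ± 1.15 (SD, n = 3 each). Whether these counts come from transcribed pseudogenes or from reads of the parent genes was not tested.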
